A study of Mus musculus with 47 samples.

Results

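The constitutive proteasome subunit genes were taken as every gene whose symbol is Psma, Psmb, Psmc or Psmd followed by a number, without the inducible catalytic genes Psmb8, Psmb9 and Psmb10. Of 36 such symbols listed, 34 had a probe annotated on the arrays, among 15967 named genes, and the brightest of their 48 probes by the mean over all arrays stood for each gene. RNA came from the striatum, cortex and cerebellum of CBA x C57BL/6 mice that carried the R6/2(300Q) transgene (tg), which encodes the start of human huntingtin with a lengthened glutamine stretch, or were wild type (wt). In each genotype and region, the histone deacetylase inhibitor 4b (1 mg/ml) was drunk for 67 days by mice aged 4 months at the start, and control mice had a treatment whose vehicle the labels do not name. The 12 groups were tg 4b, tg control, wt 4b and wt control in each region, with 4 arrays each except 3 in wt control cerebellum. By label, tg 4b held 3 female and 1 male sample in each region, and wt control cerebellum 1 female and 2 male. Every other group held 2 of each sex, and sex was not a covariate in the main fit. Each group held 1 sample per array of whole dissected tissue, so fewer cells of a type and less RNA per cell cannot be told apart. The labels do not say that replicates were separate animals, and p-values then measure only the spread between these samples, which may be technical. Nor do the labels say whether the same animal gave more than 1 region, and contrasts between regions treated all arrays as independent.

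The proteasome degrades proteins tagged with ubiquitin. Its 20S core is a barrel of alpha rings, which gate the entrance, around beta rings, of which the subunits encoded by Psmb5, Psmb6 and Psmb7 cut peptide bonds. A 19S cap binds the ubiquitin chain, removes it through the lid deubiquitinase Psmd14, and unfolds and threads the substrate with a ring of ATPases encoded by Psmc1 to Psmc6. In Huntington's disease, ubiquitin and proteasome components are found in the inclusions formed by mutant huntingtin, and the system has therefore been studied in this brain disorder.

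All values below are log2 signals after background correction and normalization, and the limma threshold for a call was an adjusted p of 0.05 (Benjamini-Hochberg over all features tested). The members comprised 7 of 8 listed alpha ring genes, 8 of 8 beta ring genes, 6 of 6 ATPases, 2 of 3 non-ATPase base subunits, 8 of 8 lid subunits and 3 of 3 assembly chaperones of the base that carry a Psmd name. Above the filter on dim probes in every region were 33 members. Psma6, an alpha ring gene, was not, with 6.21 to 6.93 over the arrays against a background mark of 6.75, the highest signal of the Y-linked gene Eif2s3y in female samples. Psmb11, the catalytic beta subunit of thymic epithelium, lay at 6.73 to 7.39 and the lid gene Psmd11 at 6.61 to 7.22, above that mark on 46 and 39 of 47 arrays. The mean signals of 20 members were above 12, and signals of different probes were not compared as amounts.

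Promoter windows of 5 members are shown because these genes are described below and their windows hold the motifs counted. RefSeq windows of 300 bases on build GRCm38.p6, from 250 before to 50 after the annotated start, existed for 28 of the 34 members (30 windows). The first 3 belong to Psmb3 (chr11:97703184-97703483, plus strand), Psma4 (chr9:54950609-54950908, plus strand) and Psmc4 (chr7:28050043-28050342, minus strand). Their capitals mark CGGAAG on either strand, the core recognised by ETS-family factors. The last 2 belong to the catalytic genes Psmb5 (chr14:54617946-54618245, minus strand) and Psmb6 (chr11:70525107-70525406, plus strand). Their capitals mark TGACNNNGC on either strand, the core of the antioxidant response element bound by Nfe2l1 and Nfe2l2 with small Maf proteins. No marked motif overlapped another motif searched.
Psmb3: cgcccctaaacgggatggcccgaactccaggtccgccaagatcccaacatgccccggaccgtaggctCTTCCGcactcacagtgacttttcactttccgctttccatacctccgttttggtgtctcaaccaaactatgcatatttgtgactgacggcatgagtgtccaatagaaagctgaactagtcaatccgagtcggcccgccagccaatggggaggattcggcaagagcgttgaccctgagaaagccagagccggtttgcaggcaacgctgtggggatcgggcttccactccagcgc
Psma4: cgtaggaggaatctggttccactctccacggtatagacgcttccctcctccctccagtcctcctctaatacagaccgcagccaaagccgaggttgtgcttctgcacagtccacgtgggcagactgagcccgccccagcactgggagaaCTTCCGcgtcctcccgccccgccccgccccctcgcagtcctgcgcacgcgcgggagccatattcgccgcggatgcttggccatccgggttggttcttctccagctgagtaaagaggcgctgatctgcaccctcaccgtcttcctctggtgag
Psmc4: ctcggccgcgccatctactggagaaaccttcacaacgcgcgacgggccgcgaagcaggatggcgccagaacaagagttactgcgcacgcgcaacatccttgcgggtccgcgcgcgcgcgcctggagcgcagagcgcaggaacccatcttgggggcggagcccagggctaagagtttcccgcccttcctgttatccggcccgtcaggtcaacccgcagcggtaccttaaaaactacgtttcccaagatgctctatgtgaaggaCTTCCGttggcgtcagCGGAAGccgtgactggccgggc
Psmb5: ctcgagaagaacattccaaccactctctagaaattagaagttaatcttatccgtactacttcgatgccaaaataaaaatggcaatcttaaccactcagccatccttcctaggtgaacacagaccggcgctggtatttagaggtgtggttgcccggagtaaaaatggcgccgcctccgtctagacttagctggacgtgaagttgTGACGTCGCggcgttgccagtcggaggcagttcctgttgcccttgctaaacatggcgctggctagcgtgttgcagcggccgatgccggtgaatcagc
Psmb6: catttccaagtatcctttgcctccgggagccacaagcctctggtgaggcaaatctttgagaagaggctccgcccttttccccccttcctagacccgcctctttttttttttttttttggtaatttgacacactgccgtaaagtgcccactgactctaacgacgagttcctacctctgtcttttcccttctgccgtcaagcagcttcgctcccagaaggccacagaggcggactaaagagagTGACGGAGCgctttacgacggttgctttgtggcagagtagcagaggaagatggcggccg
CGGAAG occurred in 18 of the 30 member windows (60%), against 16.9% of all 32851 windows and 21.1% of the 21263 windows of protein-coding genes. TGACNNNGC occurred in 5 of 30 (16.7%, in Psmb5, Psmb6, Psmc6, Psmd12 and Psmd9), against 12.4% of all windows. CCAAT, the motif of the NF-Y factor, was in 12 of 30 (40% against 37.4%), TGAGTCA, the motif of the AP-1 factors, in 1 of 30 (3.33% against 5.2%), and TATAAA, the TATA box, in 2 of 30 (6.67% against 13.6%). Both strands were searched for all 5 motifs, and a match describes the letters of the window only.

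The first question was whether the subunit genes differed between transgenic and wild-type brain. Averaged over both treatments, 7 of the 33 members rose in tg cortex and none fell, against 5.87% of 12052 features higher and 13.6% called in either direction. In striatum 2 of 33 rose and none fell, or 6.06% of the members, close to the 6.46% of 12030 features that were higher. In cerebellum 2 of 33 rose and none fell, or 6.06% of the members, against 2.32% of 12049 features. Of the 6 BeadChips, the slides that hold the arrays, 2 held both genotypes in cortex, 2 in striatum and 3 in cerebellum. BeadChip was not a covariate in the main fit, and on the other BeadChips it cannot be told apart from genotype. Differences were small. The median member difference, tg minus wt, was 0.14 in cortex, 0.10 in striatum and 0.08 in cerebellum, where the medians of all features were 0.02, 0.02 and 0.02. At an unadjusted p under 0.05, 19 of 33 members were higher in cortex (14% of features), 7 in striatum (14.6%) and 7 in cerebellum (10.1%). Positive differences were found for 30, 27 and 25 of 33 members in the order cortex, striatum and cerebellum, against 55.2%, 54.2% and 55.4% of all features. Among the 1413 features with a mean above 12 the medians were 0.03, 0.04 and 0.03, and those of the 20 members among them were 0.14, 0.11 and 0.10.

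**Figure D1:**
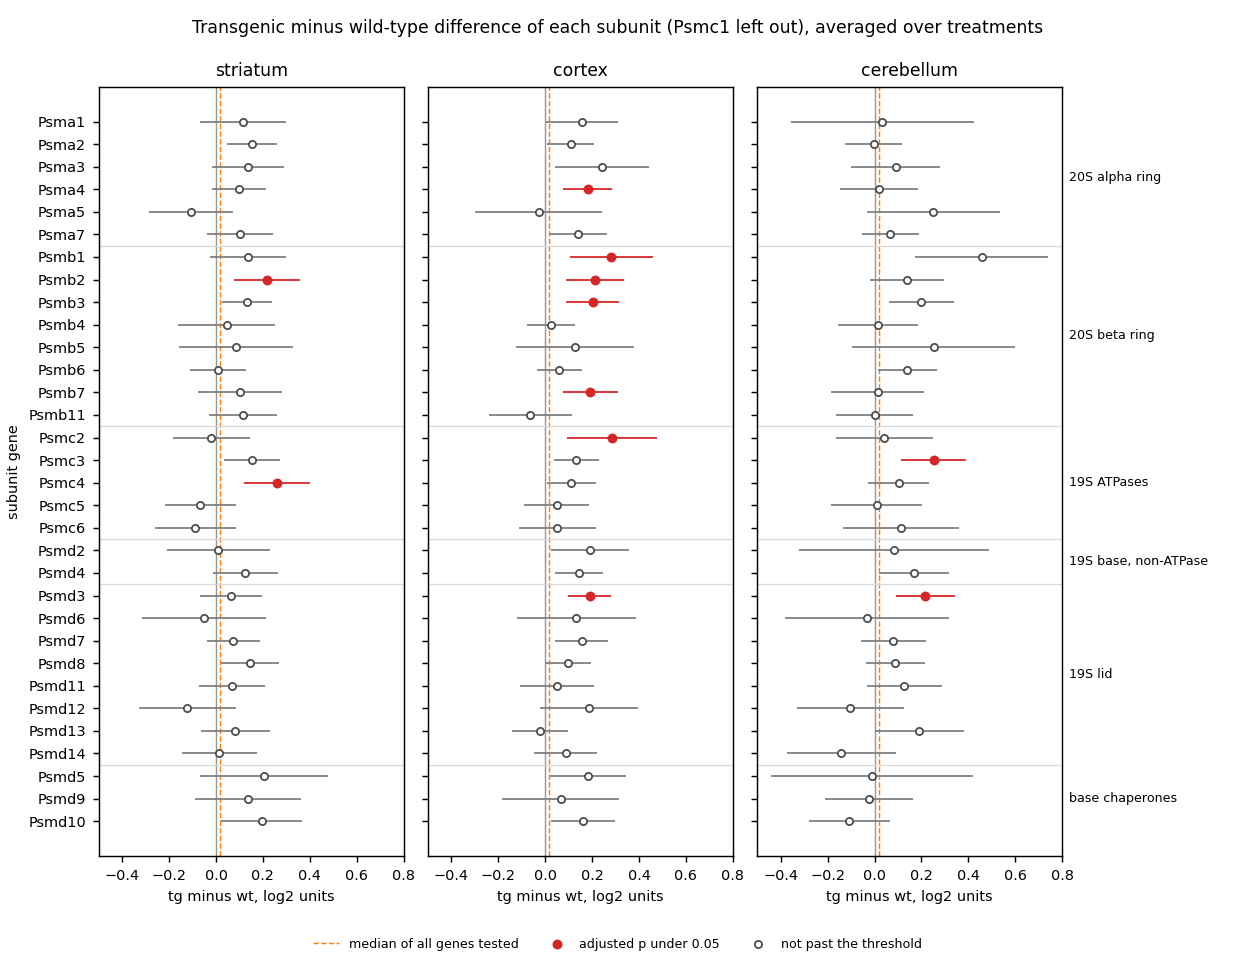
Log2 difference of tg minus wt for each subunit gene, averaged over treatments, in 3 regions, grouped by place in the complex. Lines are 95% confidence intervals, filled points passed the adjusted p of 0.05, the dashed line is the median of all genes tested, and Psmc1 is left out because its intervals, reaching 2.27 in cortex and -2.79 in cerebellum, exceed the axis. Most points lie right of 0 in cortex, and 7 are filled there.

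In cortex the lid subunit Psmd3 separated the genotypes without overlap. Its signals were 13.87, 13.90, 13.96 and 13.97 in tg 4b, 13.91, 13.84, 13.999 and 13.98 in tg control, 13.78, 13.70, 13.67 and 13.71 in wt 4b and 13.69, 13.75, 13.81 and 13.79 in wt control. All 8 tg samples were above all 8 wt samples, a difference of 0.19 ± 0.04 (SE, limma adjusted p = 0.00795). Groups of 8 against 8 did not overlap for 1 of 33 members in this direction, against 0.863% of all features. No member separated in this way in striatum (1.15% of features) or in cerebellum (0.681%). Psmd3 also rose in cerebellum, to 13.99 ± 0.08 in tg (SD, n = 8), against 13.76 ± 0.07 in wt (SD, n = 7), with limma adjusted p = 0.0445. In striatum its difference was 0.06 and did not pass.

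Of the 8 beta ring genes, 4 rose in tg cortex. Psmb3, a structural beta subunit, was at 13.44, 13.28, 13.55 and 13.32 in tg 4b, 13.28, 13.29, 13.40 and 13.30 in tg control, 13.00, 13.05, 13.12 and 13.23 in wt 4b and 13.20, 13.13, 13.23 and 13.29 in wt control. The 3 lowest signals were in wt 4b, and the highest wt control sample overlapped the tg samples (difference 0.20 ± 0.05 SE, limma adjusted p = 0.0184). Psmb2, another structural subunit, averaged 12.92 ± 0.08 in tg and 12.71 ± 0.12 in wt (SD, n = 8 each), with limma adjusted p = 0.0221. Psmb7, which carries the trypsin-like activity, averaged 13.47 ± 0.12 in tg and 13.28 ± 0.06 in wt (SD, n = 8 each), with limma adjusted p = 0.0284. Psmb1, a beta subunit with no catalytic site, averaged 12.59 ± 0.13 in tg and 12.31 ± 0.19 in wt (SD, n = 8 each), with limma adjusted p = 0.0345. The other catalytic genes had differences of 0.13 (Psmb5) and 0.06 (Psmb6) and did not pass.

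The alpha ring gene Psma4 rose by 0.18 ± 0.05 (SE) in cortex, to 13.10 ± 0.04 in tg, against 12.92 ± 0.11 in wt (SD, n = 8 each, limma adjusted p = 0.0228). The ATPase gene Psmc2 averaged 7.84 ± 0.21 in tg and 7.56 ± 0.15 in wt (SD, n = 8 each), with limma adjusted p = 0.0473. Its probe was dim, with a mean of 7.70 over all arrays, and this call held under only 8 of 25 alternatives of the processing. The 5 ATPase genes other than Psmc2 did not pass in cortex, though all 6 differences were positive, with a median of 0.12. Both measured non-ATPase base subunits and all 3 chaperones also had positive differences in cortex, none past the threshold. With the arrays scaled to a common median in place of quantile normalization, none of the 7 cortical calls remained, and the difference of Psmd3 was 0.18 (limma adjusted p = 0.0913).

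**Figure D2:**
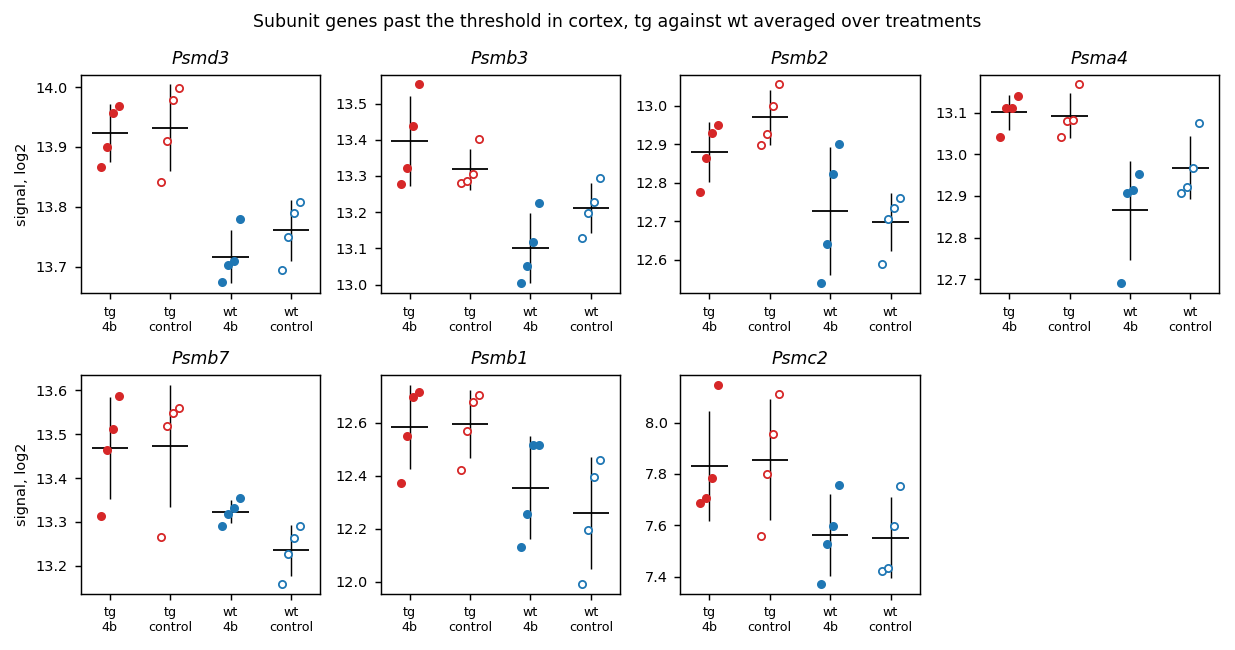
Log2 signal on each cortical array for the 7 subunit genes past the threshold in tg against wt averaged over treatments, with 4 arrays a group. Red points are tg and blue wt, filled points 4b and open points control, and lines give the mean and SD. Psmd3 shows no overlap of the genotypes, while in the other 6 from 1 (Psmb3 and Psma4) to 5 (Psmb7) of the 8 wt arrays lie above the lowest tg array.

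In striatum the ATPase gene Psmc4 rose. It was at 12.94, 13.17, 13.03 and 13.12 in tg 4b, 12.97, 13.21, 12.87 and 13.02 in tg control, 12.74, 12.73, 12.87 and 12.88 in wt 4b and 12.65, 12.75, 12.95 and 12.67 in wt control. The genotypes overlapped, with 3 of 8 wt samples above the lowest tg sample, and the difference was 0.26 ± 0.07 (SE, limma adjusted p = 0.015). Psmc4 passed under all 26 alternatives run for it, with differences of 0.20 to 0.30. Psmb2 averaged 13.03 ± 0.11 in tg striatum and 12.81 ± 0.11 in wt (SD, n = 8 each, limma adjusted p = 0.0373). The dim second probe of Psmb2, with a mean of 7.38, had a difference of -0.04 in striatum and 0.13 in cortex. In cerebellum, besides Psmd3, the ATPase gene Psmc3 rose to 13.33 ± 0.10 in tg (SD, n = 8), against 13.08 ± 0.09 in wt (SD, n = 7), with limma adjusted p = 0.0371. Psmb1 in cerebellum had the difference of 0.46 ± 0.13 (SE) and missed the threshold (limma adjusted p = 0.060). Without the filter on dim probes, Psmb2 in striatum (adjusted p = 0.0601) and both cerebellar calls (adjusted p = 0.0525 for Psmc3 and 0.0672 for Psmd3) were lost.

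Of the 13 members with more than 1 probe, Psmb7 had a second bright probe (mean 13.29) that rose by 0.17 in tg cortex (limma adjusted p = 0.038 with all probes tested). Psmd10, a base chaperone, missed the threshold with its brightest probe, whereas its second probe (mean 8.73) differed by 0.21 with limma adjusted p = 0.032.

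Within each treatment the tg against wt contrasts hold 4 arrays a group. In control mice no member was called in striatum, where 3.78% of all features were called (1.44% higher), in cortex (5.09%, 1.58% higher) or in cerebellum (0.689%, 0.332% higher). At an unadjusted p under 0.05, 4, 9 and 3 of 33 members were higher and none lower, against 9.05%, 8.19% and 6.91% of all features. Median member differences were 0.08, 0.11 and 0.08, and 24, 29 and 26 of 33 were positive, against 52.8%, 52.5% and 55.6% of all features. Psmd2, a base scaffold, and Psmb2 came nearest to the threshold in control cortex, with differences of 0.37 and 0.27 (limma adjusted p = 0.069 for both). Groups did not overlap for 2, 6 and 4 members, all higher in tg, against 5.46%, 5.48% and 4.82% of all features.

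Under 4b, 2 of 33 members rose in tg cortex, against 2.11% of all features higher and 5.52% called in either direction. Psmb3 averaged 13.40 ± 0.12 in tg 4b and 13.10 ± 0.10 in wt 4b (SD, n = 4 each), 1.23-fold higher (limma adjusted p = 0.0286). Psmc3 averaged 13.28 ± 0.05 in tg 4b and 13.05 ± 0.09 in wt 4b (SD, n = 4 each), 1.18-fold higher (limma adjusted p = 0.0393). Both separated the groups without overlap. Both were lost with median scaling, without the filter, and with only the 2 compared groups in the fit (limma adjusted p = 0.053 to 0.132). Groups did not overlap for 6 members in all, against 6.28% of features. No member was called in striatum, where 4.51% of features were called and 1.58% were higher, or in cerebellum (1.44%, 0.423% higher). At an unadjusted p under 0.05 no member was lower in tg, and 4 of 33 were higher in striatum (8.55% of features), 10 in cortex (10.8%) and 4 in cerebellum (5.69%). The median member differences were 0.09 in striatum, 0.15 in cortex and 0.07 in cerebellum. Positive differences were found for 27, 29 and 25 of 33 members, against 54.6%, 53.8% and 53.1% of features, and groups did not overlap for 3 members in striatum (5.49% of features) and 5 in cerebellum (6.64%), all higher in tg. Psmc3 in cortex was lower in wt 4b than in wt control, at 12.97 to 13.16 against 13.19 to 13.24, with an unadjusted p of 0.0153 and limma adjusted p = 0.483.

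The contrast in tg minus wt was next compared between regions in control mice. No member was called in striatum minus cortex, striatum minus cerebellum or cortex minus cerebellum, where 0.290%, 1.11% and 0.423% of 12064 features were. The difference between regions was not tested for the mean of both treatments, so a call in cortex alone is not shown to differ from the other regions.

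The second question was what 4b did to the subunits in each genotype. No member was called for 4b against control in tg or in wt mice in any region, and neither was any other feature (0%). At an unadjusted p under 0.05, no member differed in tg striatum or tg cortex, and 1 did in tg cerebellum, Psma5 (0.39), where 2.54%, 2.13% and 4.65% of features did. In wt, 1 member did in striatum, 5 in cortex and 1 in cerebellum, against 3.33%, 9.11% and 8.96% of features. The 5 in wt cortex were Psmd2 (0.32), Psma1 (0.24), Psmc3 (-0.17), Psmd10 (-0.23) and Psmd6 (-0.39), of which 2 were higher and 3 lower. Median member differences lay between -0.05 in wt cortex and 0.07 in wt cerebellum. The median standard error of a member was 0.10 in striatum, 0.09 in cortex, and 0.12 in tg and 0.13 in wt cerebellum. Psmb5, whose gene product has the chymotrypsin-like activity, was at 12.08, 12.39, 12.46 and 12.61 in tg 4b cerebellum, against 12.46, 12.14, 11.88 and 11.41 in tg control. These groups overlapped, and the 4b difference did not pass the test.

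**Figure D3:**
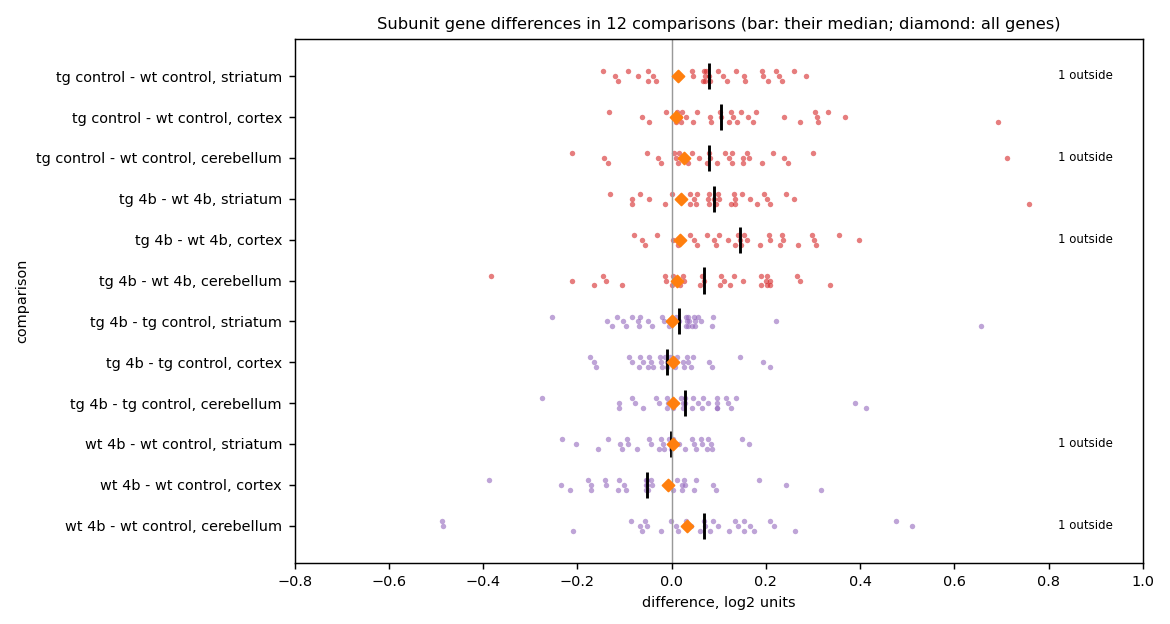
Log2 difference of every subunit gene in 12 comparisons, named on the vertical axis as first group minus second group. Red points are genotype contrasts, purple points contrasts of 4b, the black bar is the median of the members and the diamond that of all genes tested, and the number beyond the axis is given at the right. The bars of the 6 genotype contrasts lie from 0.07 to 0.15, and those of the 6 contrasts of 4b from -0.05 to 0.07.

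Single subunits differed between regions in wt control brain. Wt control arrays of cerebellum shared no BeadChip with those of striatum or cortex, so region and BeadChip cannot be told apart on these arrays alone. Striatum and cortex shared 1 BeadChip, on which the 3 called members kept their direction. Psmb1 was at 12.56, 12.29, 12.51 and 12.47 in striatum, 12.46, 11.99, 12.39 and 12.20 in cortex and 11.82, 11.59 and 11.07 in cerebellum. All cerebellar samples were the lowest. Groups did not overlap in this direction for 3 of 33 members in striatum against cerebellum (19.3% of features) and 5 in cortex against cerebellum (20.7%). Psmb1 was 1.95-fold higher in striatum than in cerebellum (limma adjusted p = 1.5e-06) and 1.70-fold higher in cortex than in cerebellum (adjusted p = 7.1e-05), while striatum and cortex overlapped. In tg control mice, which this contrast did not use, Psmb1 averaged 12.65 ± 0.14 in striatum, 12.59 ± 0.13 in cortex and 12.21 ± 0.12 in cerebellum (SD, n = 4 each).

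Psmc4 averaged 12.75 ± 0.14 in striatum and 13.02 ± 0.04 in cortex (SD, n = 4 each), a difference of -0.27 (limma adjusted p = 0.00468). Against cerebellum, at 13.13 ± 0.13 (SD, n = 3), the difference was -0.38 (adjusted p = 1.6e-04), where its dim second probe (mean 7.15) gave 0.08. Psmc3 differed by -0.26 between striatum and cortex (adjusted p = 0.00281), and the catalytic Psmb6 by 0.24 (adjusted p = 0.00309), with 13.54 ± 0.06 in striatum and 13.30 ± 0.07 in cortex (SD, n = 4 each). Between striatum and cerebellum, Psma2 (-0.26), the lid gene Psmd8 (-0.20) and the deubiquitinase gene Psmd14 (0.33) also differed. In all, 3, 5 and 2 of 33 members were called for striatum against cortex, striatum against cerebellum and cortex against cerebellum, where 30.2%, 44.4% and 43.0% of features were. Psmd13, a lid subunit, differed by 0.28 between cortex and cerebellum (adjusted p = 0.0275), while its second probe (mean 11.79) gave -0.05. The second probes of Psmc5 (-0.25) and Psmd7 (0.38) were called for striatum against cerebellum and their brightest probes were not.

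Psmc1, an ATPase whose tail helps to open the gate of the core, stood apart from all other members in its spread. On 26 arrays it was at 10.36 to 11.05 and on 21 arrays at 6.76 to 9.01, with nothing between 9.01 and 10.36 and the next lower value at 8.32. The SD within groups was 1.59, a value that 0.0714% of all features exceeded, against a median of 0.147 for members above the filter. In tg 4b striatum it was at 10.72, 10.86, 10.61 and 10.51, against 8.18, 7.64, 8.17 and 11.001 in wt control striatum. The lower range held 0 of 4 arrays in tg 4b striatum, 1 in tg control, 1 in wt 4b and 3 in wt control. In cortex it held 2, 2, 3 and 3, and in cerebellum 2, 2, 2 and 0 of 3. All 8 arrays of 1 of the 6 BeadChips were in the lower range, as were 2 to 4 of 7 or 8 on each of the others, and both sexes were in both ranges (12 female and 9 male in the lower). No other feature followed it: the closest over 47 arrays was Slc17a8, at r = 0.54. Psmc1 did not pass in any comparison of genotype, 4b or region.

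**Figure D4:**
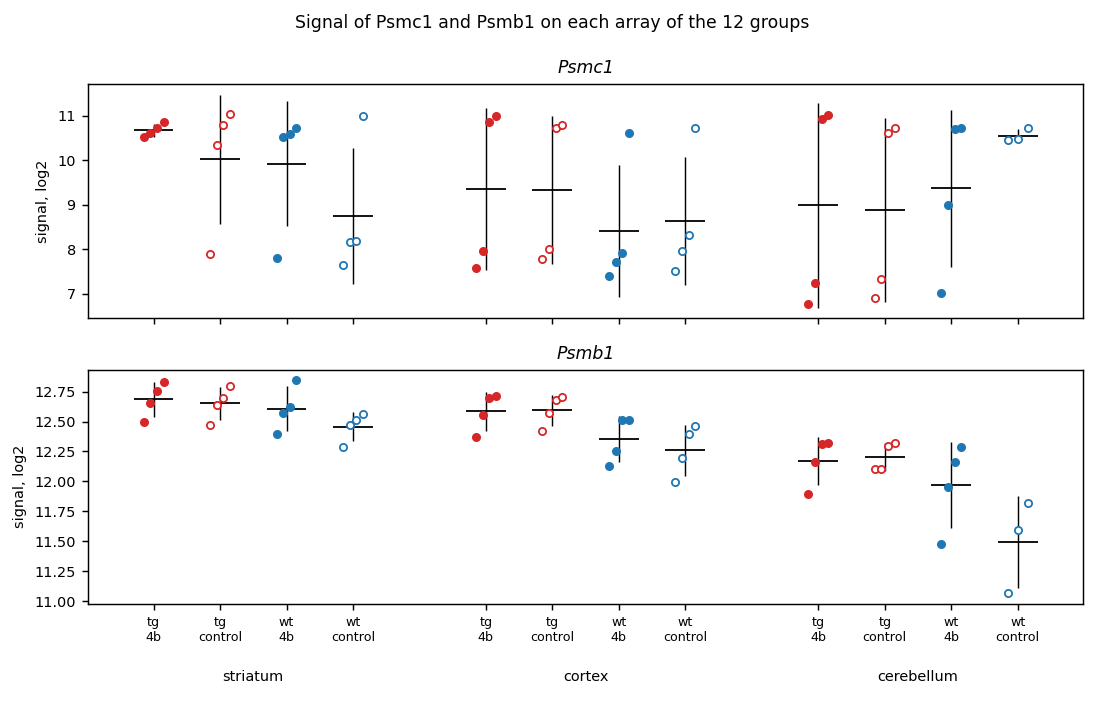
Log2 signal of Psmc1 (top) and Psmb1 (bottom) on each array of the 12 groups, with mean and SD. Red is tg, blue wt, filled 4b and open control. Psmc1 falls into an upper and a lower range that occur in nearly all groups, while Psmb1 has its lowest group mean, 11.49, in wt control cerebellum.

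Among the members, signals that departed from their group means moved together for some pairs and not for most. Both genes of a pair were read from the same samples and arrays with the same normalization. Over 528 pairs and 47 arrays, Pearson's r had a median of 0.02 and exceeded 0.6 for 17 pairs. It ran from -0.73 (Psma1 and Psmc5) to 0.87 (Psma1 and Psmd5). The next highest were Psmd13 and Psmd4 (0.83), Psma1 and Psmd2 (0.82), and Psmd12 and Psmd6 (0.79). Tg control cerebellum replicate 1 contributed to the pairs that include Psma1 and Psmd5 or Psmd2: Psma1 was at 11.28, Psmd2 at 8.30 and Psmd5 at 8.08 there, below the other 3 samples of its group, at 12.47 to 12.82, 9.60 to 9.995 and 9.26 to 9.76. The same array contributed to the negative r of Psma1 and Psmc5, with Psmc5 at 13.85 there and at 13.23 to 13.44 in the other 3.

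Genes that work with the proteasome were also examined. Psme1, which encodes a subunit of the 11S activator that caps the core, rose in tg in all 3 regions. In striatum it was at 12.05, 12.33, 12.14 and 12.04 in tg 4b, 11.91, 12.20, 12.26 and 12.08 in tg control, 11.49, 11.50, 11.58 and 11.41 in wt 4b and 11.78, 11.72, 11.75 and 11.39 in wt control. All tg samples were above all wt samples there (difference 0.55 ± 0.07 SE, limma adjusted p = 1.0e-04). In cortex the difference was 0.39 (adjusted p = 4.9e-04) and in cerebellum 0.67 (adjusted p = 0.0107). Its partner Psme2 rose in cerebellum (0.37, adjusted p = 0.0094), and of the 5 genes of activators and inhibitor, 1, 1 and 2 rose in striatum, cortex and cerebellum, where 6.46%, 5.87% and 2.32% of all features did.

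The inducible catalytic gene Psmb10 rose in tg striatum, with 11.30 ± 0.20 in tg 4b, 11.06 ± 0.18 in tg control, 10.60 ± 0.16 in wt 4b and 10.66 ± 0.28 in wt control (SD, n = 4 each). The difference was 0.55 (limma adjusted p = 0.00147), and it was 0.04 in cortex and 0.21 in cerebellum, neither past the threshold. Psmb8 and Psmb9, the other inducible catalytic genes, did not pass in any region.

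**Figure D5:**
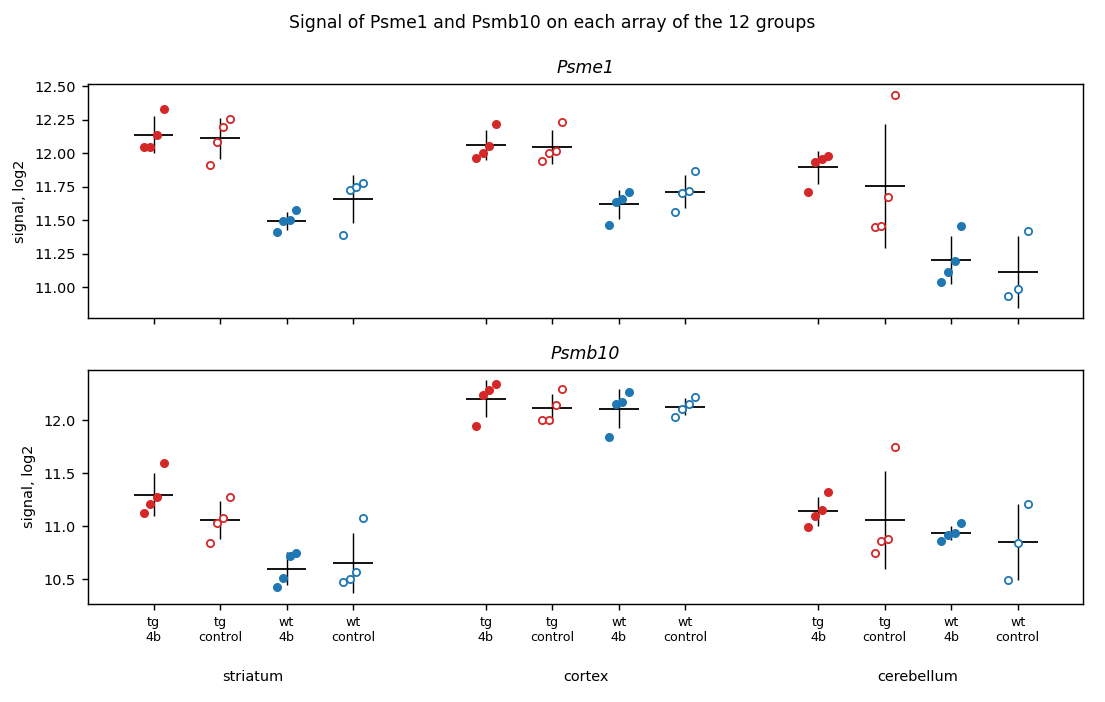
Log2 signal of Psme1 (top) and Psmb10 (bottom) on each array of the 12 groups, with mean and SD. Red is tg, blue wt, filled 4b and open control. Psme1 in striatum lies above 11.9 in all tg samples and below 11.8 in all wt samples.

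For the lists that follow, the shares of all features that rose were those just given, and 7.22%, 7.7% and 2.93% fell in striatum, cortex and cerebellum. Nfe2l1, which drives proteasome genes when the proteasome is impaired, had differences of -0.10, -0.11 and -0.01 in striatum, cortex and cerebellum and did not pass. Its partner Mafg rose in cortex (0.23, limma adjusted p = 0.0347), 1 of 5 tested in that list. Of 7 tested targets of Nfe2l2, Nqo1 (0.23) and Gclm (0.18) rose in cortex and Slc7a11 fell by 0.42 there and by 0.34 in striatum, while Gclm fell by 0.34 in cerebellum. No 20S assembly chaperone of 3 tested passed in any region. Zfand2a, a zinc finger protein that binds the proteasome, rose in cortex (0.27, adjusted p = 0.011), 1 of 7 bound factors tested. The genes named in the rest of this paragraph were picked from those past the threshold, and the numbers tested in their lists are not given. They are therefore single examples and cannot be set against the shares of all features. Uchl1, a neuronal ubiquitin hydrolase, rose in striatum (0.19) and cortex (0.25). Atxn3, a deubiquitinase with its own glutamine repeat, also rose in striatum (0.34) and cortex (0.26). Nploc4, an adaptor of the Vcp unfolding ATPase, rose in cortex (0.31), and the shuttle receptor Ubqln4 fell by 0.25 in striatum. In the COP9 signalosome, whose subunits resemble the lid, Cops5 rose in cortex (0.17) and Cops7b fell by 0.28 in striatum. Cops8 fell in both, but its signal was at 7.43 to 8.38 on 15 tg arrays and at 11.49 to 12.52 on 9, while all 23 wt arrays were at 11.26 to 12.47.

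Some cell type markers moved with genotype beside these results. Mean list levels of pan-neuronal, microglia and endothelial markers overlapped between tg and wt arrays in every region, which does not show that they were equal. Of the 7 pan-neuronal markers on the arrays, 2 averaged below the background mark in every group. Calls of single markers in these lists are not given. Over all features, 7.22% were called lower in striatum, 7.7% in cortex and 2.93% in cerebellum. In striatum 6 of 6 medium spiny neuron markers were lower, with mean list levels of 11.90 to 12.36 on tg arrays, against 12.80 to 13.09 on wt arrays. In cortex 5 of 6 excitatory neuron markers (11.65 to 11.88 on tg, against 12.13 to 12.34 on wt arrays) and 5 of 8 astrocyte markers (10.68 to 10.86, against 10.91 to 11.22) were lower. In cerebellum 4 of 7 oligodendrocyte markers were lower (11.87 to 12.25, against 12.41 to 12.97). None of the medium spiny, excitatory neuron, astrocyte and oligodendrocyte markers was below the background mark in the region where its list is given. The part of cell type markers in the differences of the subunit genes was not tested. Tg and wt control arrays shared no BeadChip in striatum or cortex. On the 2 BeadChips that held both genotypes in cortex, each with 1 wt array, which was a wt 4b array, the tg arrays numbered 3 (1 of them 4b) and 2 (both 4b). These BeadChips thus hold no wt control array, and on the one with 2 tg arrays the comparison is the same as under 4b. Median member differences there were 0.135 and 0.117, and 6 and 7 of the 7 called members were higher in tg, Psmb1 being the exception at -0.06. On the 2 such BeadChips in striatum, with 1 tg array each against 1 and 4 wt arrays, Psmc4 and Psmb2 were higher in tg on both. On the 3 in cerebellum, with 1 or 2 tg and 1 to 3 wt arrays each, Psmc3 was higher on all, and Psmd3 on 2, with -0.003 on the other. Under 4b in cortex, Psmb3 and Psmc3 were higher in tg on both shared BeadChips.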

How the data were processed

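Total RNA was hybridised to mouse Illumina bead arrays, 1 sample an array (47 arrays). The deposited table held non-normalized intensity values of 24613 probes, made with BeadStudio per the submitters' processing notes. The authors' second deposited table held log2 values within 0.0115 of plain quantile-normalized log2 intensity. No detection p-values were used. Array median intensities were 122.2 to 289.3, and the number of arrays limits precision. A further sample column matched no sample and was not used.

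Intensities were corrected with normexp (offset 50) and quantile-normalized over 47 arrays in R 4.3.3 with limma 3.58.1. Symbols came from the platform annotation, updated through gene identifiers in a GRCm38.p6 gene table (20968 probes matched). The brightest probe stood for a gene (19596 features), and features above the 40th percentile of all probes in a region were tested. Each region was fitted over its 4 groups (lmFit, eBayes, two-sided); region and between-region contrasts used all 47 arrays. The fit was run on simulated arrays with known changes, larger than the median member differences of the averaged contrasts. Their values were drawn independently and without a BeadChip effect, so that run does not cover such an effect. Named genes were all called members, or with fewer than 3 calls the 3 members of smallest p, the catalytic, ATPase and Psmd14 genes, members whose second probe disagreed, and up to 4 called genes of each pathway list. Psma1, Psmd5, Psmd12 and Psmd6 beyond that rule, and Cops8's split, were picked once their values had been seen. The members and lists were chosen with earlier results of these data known. Labelled sex matched Eif2s3y on 47 of 47 arrays, and replicates correlated at 0.978 to 0.994. Same-numbered samples were checked for pairing over 15 comparisons: 13 of 56 pairs exceeded r = 0.1, so numbers were not taken to pair samples. Alternatives are listed in the closing section. Figures used matplotlib 3.10.9 in Python 3.11.15.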

Additional observations from a re-analysis of the deposited data

Results flagged for a closer look

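Of 198 groups of 4 arrays tested over 18 subunit genes, 14 had 1 sample far from the other 3, by a critical value (Dixon's) that is defined so that chance alone passes it in about 1 in 20 groups. Psmc1 gave 3 of them: 10.63 in wt 4b cortex replicate 1 (others 7.41 to 7.93), 7.81 in wt 4b striatum replicate 2 (others 10.53 to 10.74) and 11.001 in wt control striatum replicate 4 (others 7.64 to 8.18). Psma4 was at 12.90 in tg control cerebellum replicate 3 (others 13.00 to 13.01) and at 12.69 in wt 4b cortex replicate 3 (others 12.91 to 12.95). Psmb5 was at 11.90 in wt 4b cerebellum replicate 4 (others 12.26 to 12.30) and at 12.60 in wt control cortex replicate 1 (others 11.94 to 12.01). Psmb6 was at 13.80 in tg control cerebellum replicate 1 (others 13.53 to 13.57) and at 13.33 in wt 4b cortex replicate 3 (others 13.21 to 13.22). Psmb7 was at 13.27 in tg control cortex replicate 2, Psmc4 at 13.11 in tg control cerebellum replicate 3 and Psmc5 at 13.46 in tg 4b cerebellum replicate 2, each below the other 3. Psmd14 was at 9.10 in wt 4b striatum replicate 2 and Psmd8 at 13.10 in wt control cortex replicate 1, also below the other 3.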

How the results depend on the processing

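Counts below are subunit genes called among those tested. For tg against wt averaged over treatments in cortex, median scaling gave 0 against 7, and leaving out 1 array gave 3 to 8, the lowest without tg control replicate 4, with 4 without tg 4b replicate 4, tg control replicate 3 or wt control replicate 2. In striatum, against 2, no filter gave 1, array weights 4, the BeadChip as a fixed block 6 and the replicate block 1, and leaving out 1 array 1 to 3 (1 without tg 4b replicate 4, tg control replicates 1, 2 or 4, wt 4b replicates 1, 2 or 4, or wt control replicates 1, 3 or 4). In cerebellum, against 2, median scaling gave 1, no filter 0, the BeadChip as a fixed block 4, sex as a covariate 1 and the replicate block 1, and leaving out 1 array 0 to 2 (2 only without tg control replicates 1 or 3 or wt control replicate 1). For tg 4b against wt 4b in cortex, against 2, median scaling, no filter and the compared groups only gave 0, the stricter filter 5, the mean of all probes 4 and the replicate block 1, and leaving out 1 array 0 to 1. In cerebellum, against 0, array weights and the BeadChip as a fixed block gave 2 each. For tg control against wt control, the BeadChip as a fixed block gave 2 in striatum and 1 in cerebellum, and leaving out 1 array gave 0 to 2 in cortex, all against 0. For wt control striatum against cortex, array weights gave 7 against 3. For striatum against cerebellum, median scaling and the compared groups only gave 2 and the BeadChip as a fixed block 10, against 5, with 4 to 7 leaving out 1 array. For cortex against cerebellum, median scaling gave 5, the mean of all probes 1, the BeadChip as a fixed block 8 and as a random block 4, against 2, with 1 to 3 leaving out 1 array. The replicate block moved no other count by over 1.5 times, and same-numbered samples correlated at -0.22 to 0.32. With the BeadChip as a fixed block, the 4b difference of Psma3 in tg striatum, not called in the main fit, turned from -0.137 to 0.0586. Of the calls in the averaged contrast, Psmd3, Psmb3 and Psmb2 in cortex passed under 25 of 26 alternatives each, Psma4 under 23, Psmb7 under 18, Psmb1 under 15 and Psmc2 under 8 of 25, whereas Psmb2 in striatum passed under 12 of 26, and Psmc3 and Psmd3 in cerebellum under 14 and 8 of 25. The median member difference of the averaged contrast was 0.130 to 0.152 in cortex, 0.085 to 0.160 in striatum and 0.063 to 0.110 in cerebellum over 10 settings. Leaving out 1 array gave 0.126 to 0.157, 0.080 to 0.114 and 0.037 to 0.086, with cerebellum, against 0.080, at 0.037 without wt control replicate 2, 0.044 without tg control replicate 3 and 0.049 without tg control replicate 4. For tg control against wt control, median scaling gave a median of 0.178 in striatum and 0.159 in cerebellum, against 0.079 and 0.080, and the BeadChip as a fixed block 0.127 in striatum, while cerebellum without wt control replicate 2 gave 0.0425. The cause of these changes was not tested. Dim probes near the background mark limit what can be said of Psma6, Psmd11 and Psmb11.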
